A study of Mus musculus with 7 samples.

Results

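Collagen chain genes were taken as every protein-coding gene of the count table whose mouse symbol is Col, a number, the letter a and a number, such as Col1a1 or Col27a1. They were 42 of the 22629 rows. The GENCODE M21 annotation holds 44 such symbols, and Col19a1 and Col26a1 were not analysed here. Their expression was compared between 3 subcutaneous (s/c) tumors of sgScramble control PDA cells and 4 s/c tumors of sgScramble PDA cells that expressed icOVA, a cytoplasmic form of ovalbumin that serves as a foreign antigen. PDA is pancreatic ductal adenocarcinoma, and both kinds of cell descend from line 1242, which came from a tumor of a KPC mouse, a genetic model of PDA driven by Pdx1-Cre, and had received SpCas9 and a scrambled, non-targeting guide by lentivirus.

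All hosts were C57BL/6 mice with their own connective tissue, vessels and immune system, and all tumors were taken 2 weeks after inoculation. According to the methods the mice were bought at 6 weeks of age and then housed before use. The icOVA cells also carried a doxycycline (Dox)-inducible ovalbumin vector with GFP, had passed through FACS and single-cell cloning, and were induced with Dox in the food from the day of inoculation, so the icOVA tumors may derive from 1 clone. The methods do not say whether the sgScramble cells of these 3 tumors were a clone, carried an empty or an uninduced ovalbumin vector or met Dox. They give a larger inoculum for ovalbumin-inducible s/c tumors than for other s/c tumors, without saying which these 3 tumors received. Those differences cannot be told apart from icOVA itself. The labels list each tumor as a separate sample, and p-values measure the spread between these tumors. Tumors are called by the numbers in their labels, sgScramble tumors 1, 4 and 5 and icOVA tumors 15, 16, 18 and 2.

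A collagen molecule is a triple helix of 3 chains, which come from the same gene or from different genes. Each chain is built from repeats of glycine followed by a pair of other residues (Gly-X-Y). Fibrillar collagens give tissue its tensile strength, the collagen IV network carries basement membranes, collagen VI forms beaded filaments around cells, and the fibril-associated collagens with interrupted helices (FACIT) sit on fibril surfaces. In PDA, a collagen-rich stroma laid down largely by fibroblasts is a hallmark of the disease. Sorted by this architecture, the 42 genes were 11 fibrillar, 6 basement membrane network, 6 beaded filament, 8 FACIT, 3 short-chain network, 4 transmembrane and 2 multiplexin genes, plus the anchoring fibril gene Col7a1 and Col28a1, which was left outside the classes.

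All members shared a feature of sequence that a few other genes also had. In the longest coding sequence of each gene in GENCODE M21, 42 of 42 members held an unbroken run of at least 20 Gly-X-Y triplets, against 17 other genes among the 16185 protein-coding rows with a coding sequence. The longest run was 337 to 344 triplets in 9 of the fibrillar chains. In Col24a1 and Col27a1 it was 216 and 217 triplets. All tracts of at least 5 triplets together held 981 and 987 residues in these chains. In the other fibrillar chains they held 1059 (Col1a2) to 1092 (Col2a1). The longest unbroken run is thus not the length of the helix. Collagen IV chains were interrupted, with longest runs of 39 to 66 triplets. Triplet tracts of at least 5 repeats made up 85.6% of the Col9a3 chain and 8.12% of the Col12a1 chain, most of which is made of other domains.

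The libraries held 30904855 to 37510591 counts. Counts of the OVA row separated the groups as labeled, with 85 to 151 in sgScramble tumors and 3413 to 10750 in icOVA tumors. The source of the OVA counts in sgScramble tumors was not tested. Expression is given as CPM, the count of a gene scaled to its library's size after TMM normalization. The test was the quasi-likelihood F test of edgeR on the 17489 genes with enough counts, with Benjamini-Hochberg adjustment over all of them and a threshold of 0.05. Of the members, 34 had enough counts for the test. Subcutaneous tumors can include skin and muscle, and summed skeletal muscle markers ran from 10.5 to 182 CPM without a split by group, whereas the 3 skin keratinocyte markers with a row summed to 1.80 to 2.85 CPM. Epithelial cancer cell markers summed to 3149 CPM in icOVA tumor 18 and to between 4941 and 5442 CPM in the other tumors.

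Collagen RNA was among the most abundant in these tumors. Col3a1, Col1a1 and Col1a2 ranked 5th, 7th and 9th of all rows by mean CPM. The 42 genes together took 1.23%, 2.34% and 1.11% of the counts of sgScramble tumors 1, 4 and 5, and 3.33%, 0.973%, 4.68% and 1.33% of those of icOVA tumors 15, 16, 18 and 2. The Wilson 95% interval of a share was narrow (4.67% to 4.69% for tumor 18) and covers counting error only. The icOVA group thus held both the highest and the lowest share, and the groups overlapped. In bulk tumors, more cells of a type and more RNA per cell cannot be told apart. The 3 chains of collagens I and III supplied 53.0% of the collagen counts in tumor 16 and 76.3% in tumor 18, and tumors 15 and 18 had the largest value of both shares.

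No collagen chain gene passed the threshold as higher in icOVA tumors, and 2 of the 34, Col27a1 and Col4a5, passed it as lower. Over all genes tested, 3.36% were called higher and 2.54% lower. At an unadjusted p below 0.05 there were 10 of the 34 members, 3 with a positive and 7 with a negative fold change, beside 4762 of all 17489 genes, a similar share. DESeq2 called 3 members higher and 4 lower, beside 1558 and 1278 of all genes. The groups did not overlap for 3 members, each lower in all icOVA tumors (Col27a1, Col4a5 and Col11a2, the last named after its values were seen), and for 0 members higher in all of them. Among all genes, 13.3% were without overlap in the lower direction and 11.3% in the higher. The log2 fold change, icOVA over sgScramble, was positive for 22 members and negative for 12, with a median of 0.33 against -0.005 for all genes tested. Both calls were lost when sgScramble tumor 1, sgScramble tumor 5, icOVA tumor 15 or icOVA tumor 2 was left out. Nearly all calls over all genes were lost in the same fits, with at most 6 genes called higher and at most 2 lower.

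**Figure D1:**
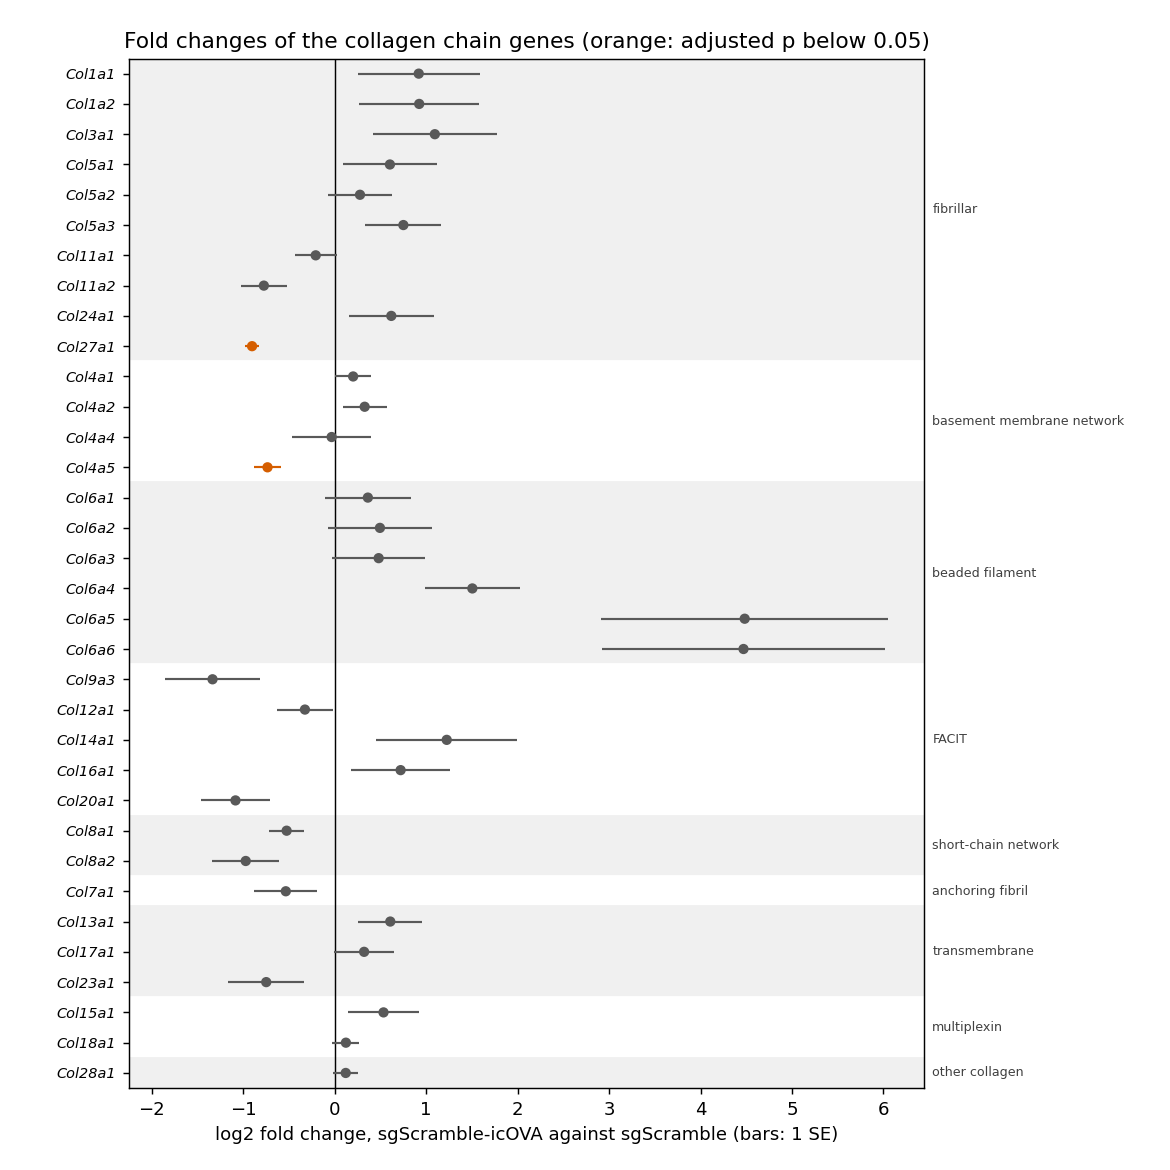
Log2 fold change of the 34 tested collagen chain genes, icOVA over sgScramble tumors, by collagen class, with bars of 1 standard error from edgeR. Points in orange (Col27a1 and Col4a5) passed the adjusted threshold, and Col6a5 and Col6a6 combine the largest fold changes with the widest bars.

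The spread between tumors of 1 group was much wider for these genes than for most. The SD of log2 CPM had a median over the members of 0.49 in sgScramble tumors and 0.65 in icOVA tumors, against 0.16 and 0.19 over all genes tested. Likewise the standard error of the log2 fold change had a median of 0.40 for members and 0.15 for all genes. In icOVA tumors 15 and 18, 19 of the 34 tested members were higher than in any other tumor. Tumor 18 held the highest value of 21 members and sgScramble tumor 4 that of 7, while icOVA tumor 16 held the lowest value of 13 and sgScramble tumor 5 that of 10. Counting error was small beside this spread in the abundant chains.

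**Figure D2:**
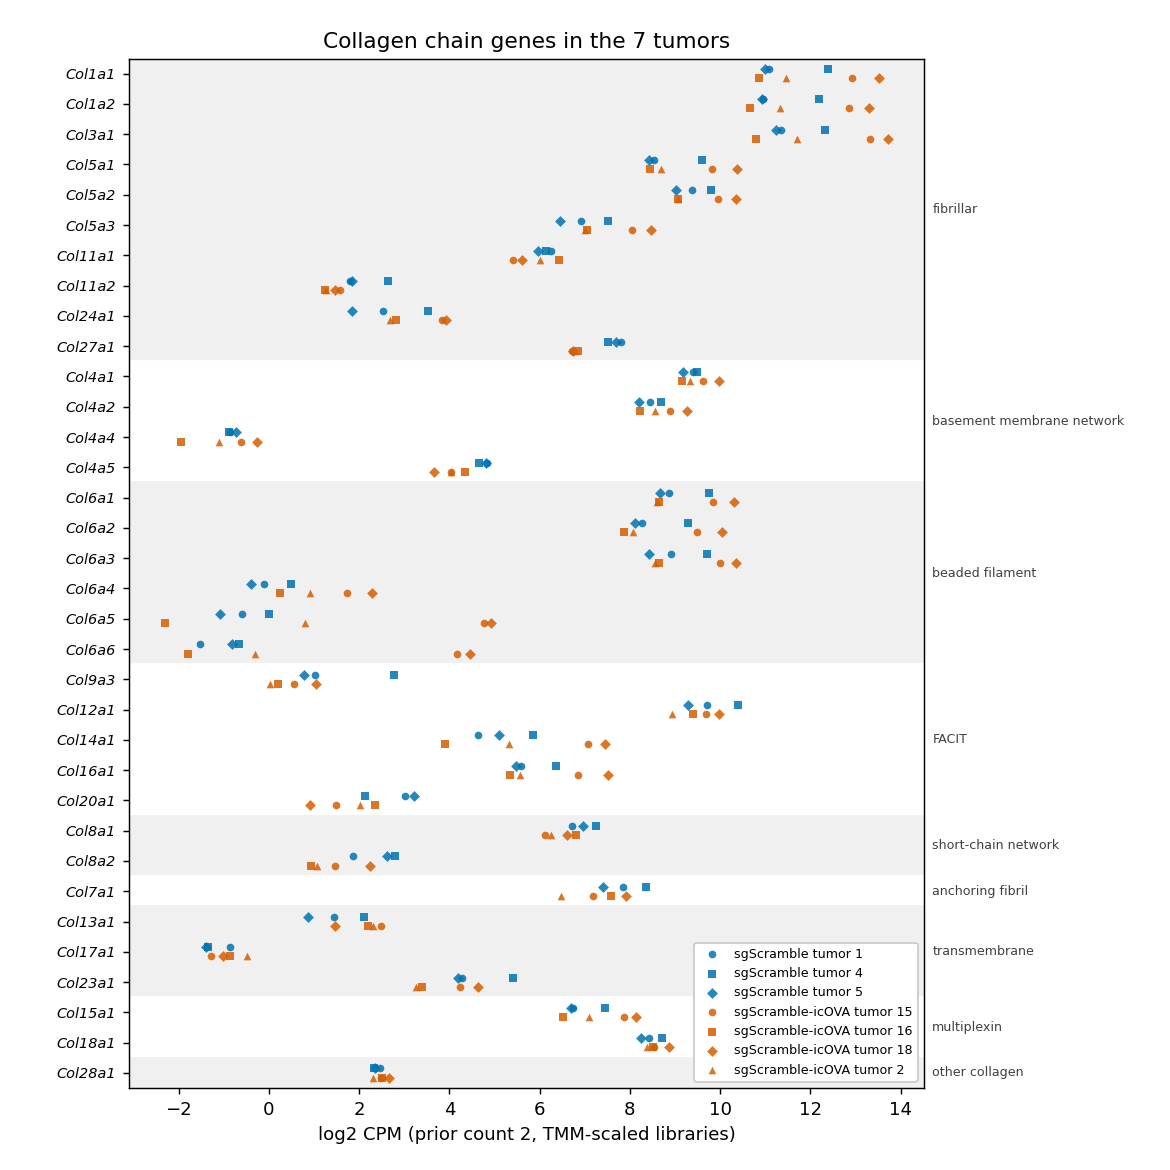
Log2 CPM of each of the 34 tested collagen chain genes in the 7 tumors, grouped by collagen class. Blue marks are sgScramble and orange marks icOVA tumors. For most stromal chains tumors 15 and 18 lie to the right and tumor 16 to the left, and for Col27a1 and Col4a5 every orange mark lies left of every blue mark.

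Fibrillar collagens made up most of the total and varied most. Their sum was 8249, 17202.5 and 7614 CPM in sgScramble tumors 1, 4 and 5, and 27775, 6483, 38484 and 9920.5 CPM in icOVA tumors 15, 16, 18 and 2. Tumors 15 and 18 stood above every sgScramble tumor and tumor 16 below all of them. Of the 10 tested fibrillar genes, 7 had a positive and 3 a negative log2 fold change, the median was 0.61, and 1 (Col27a1) was called.

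Col1a1 encodes the chain that is present as a pair in each collagen I molecule. It was the most abundant member per kilobase of exon (733 CPM per kilobase over all tumors), whereas Col3a1 had the higher mean CPM (5565.5 against 4812.2). Col1a1 had 2179.6, 5357 and 2024 CPM in the sgScramble tumors and 7793, 1864, 11671 and 2796.5 CPM in icOVA tumors 15, 16, 18 and 2. Its partner chain Col1a2 had 1990.4, 4639.5 and 1947 CPM against 7416, 1617, 10129 and 2555 CPM. The log2 fold changes of 0.92 (SE 0.67) and 0.92 (SE 0.66) did not pass the threshold (adjusted p = 0.406 and 0.395, edgeR). Both chains put the tumors in the same order, and the ratio of Col1a1 to Col1a2 per kilobase stayed between 1.97 and 2.19 (mean 2.09 ± 0.093, SD, n = 7). Lengths are the merged exons of all annotated transcripts, 6563 bases for Col1a1 and 12426 for Col1a2. The level of the ratio depends on these lengths and does not measure chain proportions. Only its steadiness between tumors is read here. Col3a1, whose homotrimer forms fibrils with collagen I in distensible tissue, followed the same order of tumors with 2615.5, 5088 and 2415 CPM against 10241, 1774.5, 13513 and 3312 CPM, a log2 fold change of 1.10 with SE 0.68 (adjusted p = 0.333).

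The chains of collagen V, which nucleates collagen I fibrils, gave smaller differences in the same direction, and none was called. Col5a1 had a log2 fold change of 0.60 (SE 0.52), Col5a2 of 0.28 (SE 0.35) and Col5a3 of 0.75 (SE 0.41). Per kilobase, the ratio of Col5a2 to Col3a1, its neighbour on chromosome 1, was 0.261, 0.180 and 0.2215 in the order of the sgScramble tumors above, and 0.0988, 0.310, 0.0993 and 0.165 for icOVA tumors 15, 16, 18 and 2. The libraries with most collagen carried least Col5a2 for each unit of Col3a1. Col3a1 is itself a large part of the collagen total, so this relation is partly built in. Col24a1 had 3.52 to 11.5 CPM in sgScramble and 6.40 to 15 CPM in icOVA tumors, with a log2 fold change of 0.62 (SE 0.47).

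Col27a1 had the lowest adjusted p of the 34 tested genes. It encodes the homotrimeric fibrillar collagen XXVII, known from cartilage and other developing tissues, and spans chr4:63214004-63334991 on the plus strand of GRCm38 in GENCODE M21. It had 222, 182.5 and 207.5 CPM in sgScramble tumors 1, 4 and 5 and 104, 115, 107 and 110 CPM in icOVA tumors 15, 16, 18 and 2. Every icOVA value was below every sgScramble value, and the icOVA tumors lay close together, tumors 15 and 18 included. The means were 204 ± 19.97 (SD, n = 3) and 109 ± 4.64 CPM (SD, n = 4), a 1.87-fold lower level in icOVA tumors (the log2 fold change was -0.90 with SE 0.081, adjusted p = 0.0159, edgeR). The log2 fold change ran from -0.97 to -0.84 with each tumor left out in turn. Its adjusted p was then 0.0866 without sgScramble tumor 1, 0.112 without sgScramble tumor 5, 0.0725 without icOVA tumor 15 and 0.0532 without icOVA tumor 2. It did not share exon bases with another annotated gene. The cartilage and bone markers, a tissue in which the gene is known, summed to 27.0 to 52.6 CPM in sgScramble and 57.0 to 80.1 CPM in icOVA tumors, with Bglap at 0 counts in 3 tumors and Sp7 in 1. Most of this sum was Acan, with 24.3 to 50.1 and 56.4 to 79.3 CPM. Of their 5 genes with a row, 3 were tested, with log2 fold changes of 0.75 for Acan, -0.67 for Matn3 and -2.69 for Hapln1, the last called lower. The part of such tissue in the Col27a1 values was not tested.

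The 2 remaining negative members of the class are the chains of collagen XI, a minor fibril component of cartilage and tumor stroma. Col11a2 had 3.40, 6.20 and 3.55 CPM in the sgScramble tumors and 2.92, 2.29, 2.70 and 2.33 CPM in the icOVA tumors. These ranges did not overlap, but its log2 fold change of -0.77 (SE 0.25) missed the threshold (adjusted p = 0.0994). Col11a1, with 62.5 to 75.8 CPM in sgScramble and 42.2 to 86.1 CPM in icOVA tumors, overlapped (log2 fold change -0.21, SE 0.23). Col2a1, the main collagen of cartilage, had at most 4 counts in a tumor and was not tested.

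**Figure D3:**
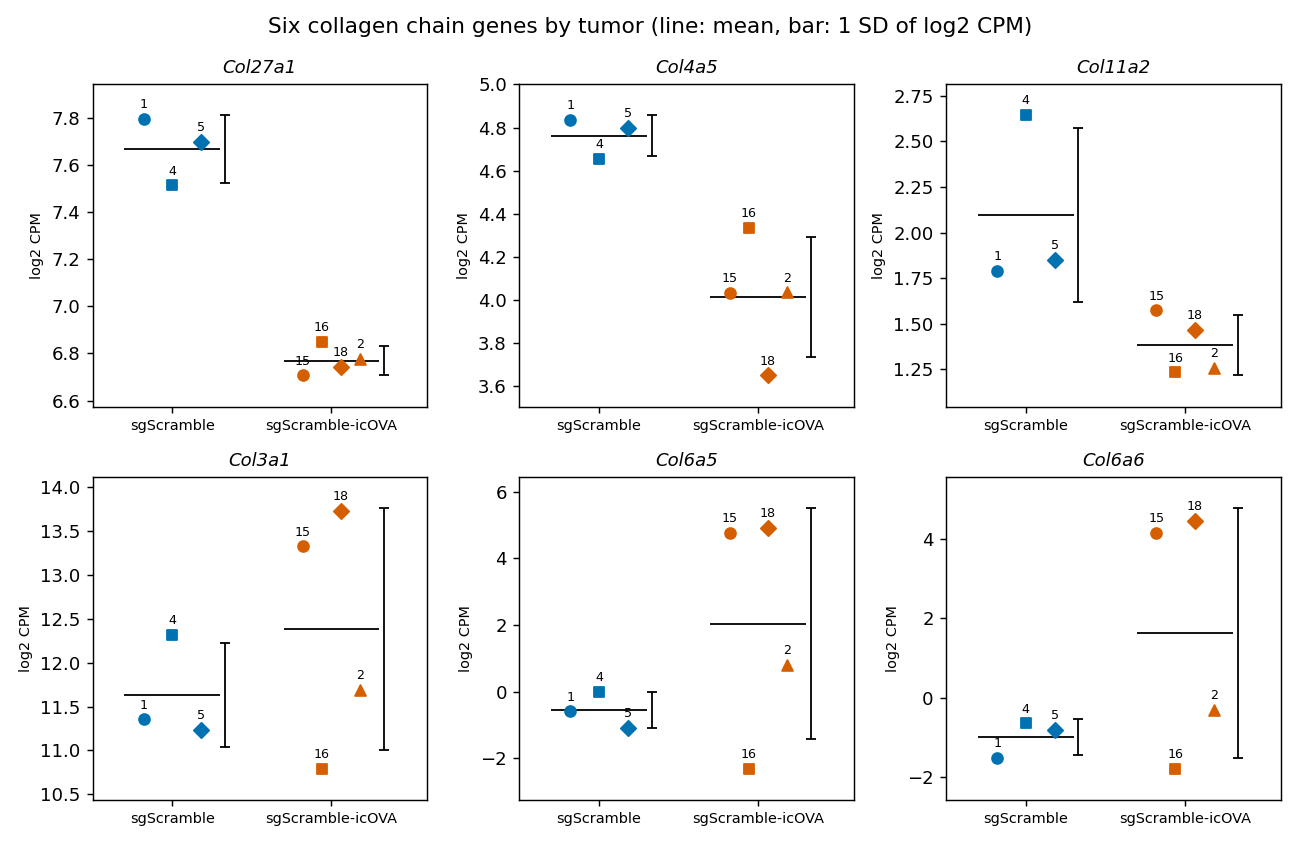
Log2 CPM of 6 collagen chain genes in each tumor, with the mean as a line and 1 SD as a bar. Col27a1, Col4a5 and Col11a2 are lower in all 4 icOVA tumors than in any sgScramble tumor, whereas Col3a1, Col6a5 and Col6a6 are highest in icOVA tumors 15 and 18 and lowest in icOVA tumor 16.

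Basement membrane chains differed less between tumors than fibrillar chains. The sum of the 6 collagen IV genes was 1051.5, 1153 and 900.4 CPM in sgScramble tumors and 1284.5, 889, 1638 and 1039.6 CPM in icOVA tumors 15, 16, 18 and 2. The highest tumor was 1.84 times the lowest, against 5.94 times for the fibrillar sum, and the groups overlapped. Col4a1 and Col4a2 encode the chains of the ubiquitous collagen IV network and had 575 to 713 and 296 to 414 CPM in sgScramble tumors. In icOVA tumors they had 568 to 1006.5 and 301 to 618 CPM. Neither was called (log2 fold change 0.20, SE 0.19, and 0.33, SE 0.24). These genes lie head to head on chromosome 8 and overlap by 22 bases, and the ratio of Col4a1 to Col4a2 per kilobase was 1.44 to 1.73 in the 7 tumors.

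Col4a5, on chrX:141475385-141689234 of GRCm38, encodes the α5 chain, which forms trimers with α3 and α4 or with α6 in specialised basement membranes. It had 28.5, 25.1 and 27.8 CPM in sgScramble tumors 1, 4 and 5 and 16.3, 20.1, 12.5 and 16.3 CPM in icOVA tumors 15, 16, 18 and 2. The ranges did not overlap, and within the icOVA group tumor 16 was highest and tumor 18 lowest, the reverse of Col1a1. The means were 27.1 ± 1.78 (SD, n = 3) and 16.3 ± 3.10 CPM (SD, n = 4), 1.66-fold lower in icOVA tumors (the log2 fold change was -0.73 with SE 0.15, adjusted p = 0.0374, edgeR). Against a minimum fold change of 1.2 the adjusted p was 0.096. Leaving out 1 tumor gave log2 fold changes of -0.85 to -0.62, and adjusted p-values of 0.164 without sgScramble tumor 1, 0.166 without sgScramble tumor 5, 0.109 without icOVA tumor 15 and 0.0895 without icOVA tumor 2.

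The possible partners of the α5 chain were near the limit of detection. Col4a6, divergent from Col4a5 across a gap of 1308 bases, was counted 24, 5 and 24 times in sgScramble tumors 1, 4 and 5 and 7, 6, 3 and 1 times in icOVA tumors 15, 16, 18 and 2. It was too low for the test. Col4a3 had 1 to 12 counts and was also left untested, and Col4a4 had 0.486 to 0.543 CPM in sgScramble and 0.2005 to 0.776 CPM in icOVA tumors, with a log2 fold change of -0.03 (SE 0.43) whose sign changed when sgScramble tumor 5, icOVA tumor 16 or icOVA tumor 2 was left out. The ratio of Col4a5 to Col4a6 per kilobase ran from 43.0 to 624, the latter from a single count of Col4a6.

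The promoter windows of both called genes are shown with those of the Col4a1 and Col4a2 pair, since the latter share bases and were not called. They are RefSeq sequences of GRCm38.p6, each 300 bases from 250 before to 50 after the annotated start and read 5′ to 3′ along the gene. Capitals mark matches on either strand to the CCAAT box (CCAAT) or the GC box (GGGCGG), and none of the 4 windows holds the TATA box letters TATAAA. The windows are Col27a1 at chr4:63215162-63215461 (plus strand), Col4a5 at chrX:141475169-141475468 (plus), Col4a1 at chr8:11312777-11313076 (minus) and Col4a2 at chr8:11312555-11312854 (plus).
Col27a1: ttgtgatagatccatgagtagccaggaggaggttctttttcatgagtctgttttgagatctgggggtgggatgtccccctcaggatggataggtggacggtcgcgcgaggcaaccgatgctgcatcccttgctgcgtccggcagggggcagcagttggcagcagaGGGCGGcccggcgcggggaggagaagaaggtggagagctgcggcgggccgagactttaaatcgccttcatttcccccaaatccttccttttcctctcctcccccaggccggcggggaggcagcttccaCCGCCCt
Col4a5: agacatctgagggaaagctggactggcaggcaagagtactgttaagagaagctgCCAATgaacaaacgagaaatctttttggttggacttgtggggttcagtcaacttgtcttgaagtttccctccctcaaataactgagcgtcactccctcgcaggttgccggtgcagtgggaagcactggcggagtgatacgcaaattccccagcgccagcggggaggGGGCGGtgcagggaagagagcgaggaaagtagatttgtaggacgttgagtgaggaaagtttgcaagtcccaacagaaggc
Col4a1: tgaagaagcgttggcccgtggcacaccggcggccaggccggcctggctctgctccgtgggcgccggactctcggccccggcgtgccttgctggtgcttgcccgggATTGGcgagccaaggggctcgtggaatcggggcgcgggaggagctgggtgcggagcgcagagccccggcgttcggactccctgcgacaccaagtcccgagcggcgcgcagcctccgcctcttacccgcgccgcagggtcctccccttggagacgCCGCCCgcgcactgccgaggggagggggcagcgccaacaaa
Col4a2: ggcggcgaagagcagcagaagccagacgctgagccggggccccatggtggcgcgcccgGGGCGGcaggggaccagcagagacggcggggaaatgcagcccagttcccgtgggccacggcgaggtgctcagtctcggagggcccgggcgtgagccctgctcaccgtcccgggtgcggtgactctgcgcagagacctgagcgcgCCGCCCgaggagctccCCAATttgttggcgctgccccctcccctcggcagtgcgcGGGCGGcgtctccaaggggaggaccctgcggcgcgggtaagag
The GENCODE start of Col27a1 lies upstream of this RefSeq window. GC content was 61.7% in the Col27a1 and 52.7% in the Col4a5 window, the latter equal to the median of 52.7% over all windows, and 74.0% and 73.7% in the Col4a1 and Col4a2 windows, which share 78 bases. The GC box was found in 22 of the 34 members that have a window and in 35.7% of all 32851 windows, the CCAAT box in 12 of 34 and in 37.4%, and the TATA box in 5 of 34 and in 13.6%. These matches are letters in a window and were not tested as sites.

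Beaded filament genes fell into an abundant and a scarce trio. Col6a1, Col6a2 and Col6a3 encode the chains of the widespread collagen VI heterotrimer. Col6a1 was the class leader per kilobase and had 467.5, 858 and 409 CPM in sgScramble tumors and 917, 397, 1273 and 389 CPM in icOVA tumors 15, 16, 18 and 2. Tumors 15 and 18 were again the highest and the other icOVA tumors the lowest. Its log2 fold change was 0.36 (SE 0.47), and -0.025 without icOVA tumor 18. Those of Col6a2 and Col6a3 were 0.50 (SE 0.57) and 0.48 (SE 0.51), and none was called. The ratio of Col6a1 to Col6a2 per kilobase ran from 2.31 to 3.24, and that of Col6a3 to Col6a1 from 0.307 to 0.407. The merged exon lengths were 4380, 8326 and 11963 bases for Col6a1, Col6a2 and Col6a3, and the levels of these ratios depend on them.

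The scarce trio Col6a4, Col6a5 and Col6a6 encodes chains that can stand in for the α3 chain and are restricted to a few tissues, the skin among them for α5 and α6. These genes gave the largest positive log2 fold changes of all members, 1.51, 4.48 and 4.47 (SE 0.52, 1.57 and 1.55), with high values in a minority of tumors. Col6a5 was counted 21, 31 and 13 times in sgScramble tumors 1, 4 and 5, and had 1000, 5, 1045 and 54 counts in icOVA tumors 15, 16, 18 and 2. In CPM these were 0.604, 0.941 and 0.415 against 27.0, 0.143, 30.0 and 1.68. Tumors 15 and 18 were far above the sgScramble range and tumor 2 a little above it, while tumor 16 was below it. Col6a6 had 10, 19 and 16 counts against 664, 8, 761 and 24, in CPM 0.288, 0.577 and 0.511 against 17.9, 0.229, 21.9 and 0.746. The same tumors were high and low. Col6a4 had a narrower range, 0.863, 1.34 and 0.703 CPM against 3.27, 1.117, 4.80 and 1.83 CPM.

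None of the 3 passed the threshold in edgeR (adjusted p = 0.115 for Col6a4, 0.120 for Col6a5 and 0.117 for Col6a6). DESeq2 called them (adjusted p = 0.0347, 0.0173 and 0.0142), as did edgeR without icOVA tumor 16 (0.0443, 0.0363 and 0.0441). The genes are neighbours on the minus strand of chromosome 9, with 27917 bases between Col6a5 and Col6a6. Where both had over 600 counts, in tumors 15 and 18, the ratio of Col6a5 to Col6a6 per kilobase was 1.47 and 1.34. The ratio of Col6a4 to Col6a6 was 0.196 and 0.236 in those tumors and 1.48 to 5.24 in the other tumors, where it rested on as few as 8 counts. The promoter windows of Col6a5 (chr9:105960594-105960893, minus strand) and Col6a6 (chr9:105828036-105828335, minus strand) are shown because these genes were high in the same tumors. Capitals again mark the GC box on either strand.
Col6a5: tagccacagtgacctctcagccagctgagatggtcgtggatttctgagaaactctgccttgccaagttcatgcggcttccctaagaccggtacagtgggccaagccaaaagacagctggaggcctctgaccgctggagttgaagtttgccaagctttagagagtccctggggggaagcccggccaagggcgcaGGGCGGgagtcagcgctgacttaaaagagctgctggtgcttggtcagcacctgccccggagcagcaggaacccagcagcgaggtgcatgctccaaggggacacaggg
Col6a6: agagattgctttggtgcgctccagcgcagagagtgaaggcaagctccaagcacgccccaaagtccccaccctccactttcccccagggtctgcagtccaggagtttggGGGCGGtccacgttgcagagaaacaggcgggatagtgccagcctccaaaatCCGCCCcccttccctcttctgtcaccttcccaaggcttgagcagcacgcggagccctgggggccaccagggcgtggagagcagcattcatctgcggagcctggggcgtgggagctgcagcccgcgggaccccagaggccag
Neither window holds the letters of the TATA or the CCAAT box, and their GC content was 60% and 65.0%.

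Several genes of loose connective tissue were high in the same tumors as Col6a5 and Col6a6. They were chosen after their values were seen, from 2 lists described below. Dpt is 1 of 10 fibroblast markers, of which 8 had a positive and 2 (Acta2 and Tagln) a negative log2 fold change. Tnxb and Ogn are among 11 fibril-associated genes, of which 10 were positive and 1 (Fn1) negative. Dpt, which encodes dermatopontin, an abundant matrix protein of the dermis, had 6.16, 19.7 and 11.1 CPM in sgScramble tumors and 175, 9.65, 234 and 36.9 CPM in icOVA tumors 15, 16, 18 and 2. Tnxb, encoding tenascin-X, had 6.76, 7.93 and 8.05 CPM against 63.1, 2.55, 81.0 and 15.8 CPM. The small proteoglycan gene Ogn had 1.84, 6.92 and 2.84 CPM against 39.6, 1.35, 49.6 and 9.97 CPM. None of the 3 was called (adjusted p = 0.105, 0.161 and 0.161, edgeR), and the part of such tissue in the collagen values was not tested.

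Among the FACIT genes the signs were mixed. Of 8 genes, 5 were tested, 2 positive and 3 negative, with a median log2 fold change of -0.32, and none was called. Col12a1, which encodes the collagen XII that coats collagen I fibrils in tissue under load, led the class with 836, 1347 and 625 CPM in sgScramble tumors and 820, 671.5, 1008 and 492 CPM in icOVA tumors 15, 16, 18 and 2. The highest value was in sgScramble tumor 4, unlike that of Col1a1. Its log2 fold change of -0.32 (SE 0.31) became 0.043 without that tumor. Col14a1, encoding the related collagen XIV, had 24.7, 57.7 and 34.5 CPM against 134, 14.9, 176 and 39.8 CPM (log2 fold change 1.23, SE 0.77). Tumors 18, 15 and 4 were highest, as for the collagen I chains. Col16a1 had 44.2 to 82.7 CPM and 40.3 to 182 CPM (0.72, SE 0.54).

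The other FACIT genes were scarce. Col20a1 had 7.998, 4.31 and 9.27 CPM in sgScramble tumors and 2.75, 5.04, 1.81 and 3.98 CPM in icOVA tumors 15, 16, 18 and 2, with the highest values in sgScramble tumors 1 and 5. Its log2 fold change was -1.08 with SE 0.38 (adjusted p = 0.122, and 0.0484 with DESeq2). Part of this gene, 79 exon bases, is shared with an overlapping transcript that has a row of its own. Col9a3 had 1.96, 6.74 and 1.66 CPM against 1.40, 1.09, 2.01 and 0.963 CPM, so its log2 fold change of -1.33 (SE 0.52) rested largely on sgScramble tumor 4 and was -0.39 without it. Col9a3 shares 234 exon bases with Tcfl5 on the opposite strand. Col9a1, Col9a2 and Col22a1 had at most 6 counts and were not tested.

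Short-chain network genes were negative as a pair. Col8a1 and Col8a2 encode the chains of collagen VIII, which forms hexagonal lattices and is found in vessel walls and the cornea. Col8a1 had 104.5, 153 and 124 CPM in sgScramble tumors and 69.2, 112, 96.7 and 76.03 CPM in icOVA tumors 15, 16, 18 and 2, and only tumor 16 reached into the sgScramble range. The log2 fold change was -0.52 with SE 0.19 (adjusted p = 0.128). Col8a2 had 3.57, 6.89 and 6.04 CPM against 2.70, 1.86, 4.63 and 2.02 CPM, a log2 fold change of -0.97 with SE 0.36 (adjusted p = 0.140, and 0.0447 without icOVA tumor 18). Col10a1, the collagen of hypertrophic cartilage, had at most 3 counts.

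The anchoring fibril gene Col7a1, whose product ties the epidermal basement membrane to the dermis, had 229, 326 and 168 CPM in sgScramble tumors and 145, 192, 243 and 88.3 CPM in icOVA tumors 15, 16, 18 and 2. The groups overlapped (the log2 fold change was -0.53 with SE 0.34, adjusted p = 0.349). The 3 skin keratinocyte markers with a row summed to 1.80 to 2.85 CPM in the same libraries. The source of the Col7a1 RNA was not tested.

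Transmembrane collagens were scarce. Col23a1, their leader per kilobase, had 19.2, 42.4 and 18.2 CPM in sgScramble tumors and 18.9, 10.4, 24.6 and 9.51 CPM in icOVA tumors 15, 16, 18 and 2, with an overlap and a log2 fold change of -0.75 with SE 0.42 (adjusted p = 0.288). Col13a1 had 1.76 to 4.25 and 2.70 to 5.51 CPM (0.61, SE 0.35). Col17a1, the hemidesmosomal collagen of keratinocytes, had 0.320 to 0.489 and 0.351 to 0.652 CPM (0.32, SE 0.32). Col25a1 had at most 12 counts and was not tested.

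Multiplexins, proteoglycan collagens of basement membrane zones, varied less. Col18a1, the source of the fragment endostatin, had 342, 416.5 and 301 CPM in sgScramble tumors and 373, 364, 468 and 334 CPM in icOVA tumors (log2 fold change 0.12, SE 0.15). Col15a1 had 104 to 174 and 92.0 to 281 CPM (0.53, SE 0.39). Col28a1, a chain with von Willebrand factor A domains, varied least, with 5.41, 4.98 and 5.02 CPM against 5.56, 5.61, 6.29 and 4.88 CPM (0.12, SE 0.14, adjusted p = 0.605).

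**Figure D4:**
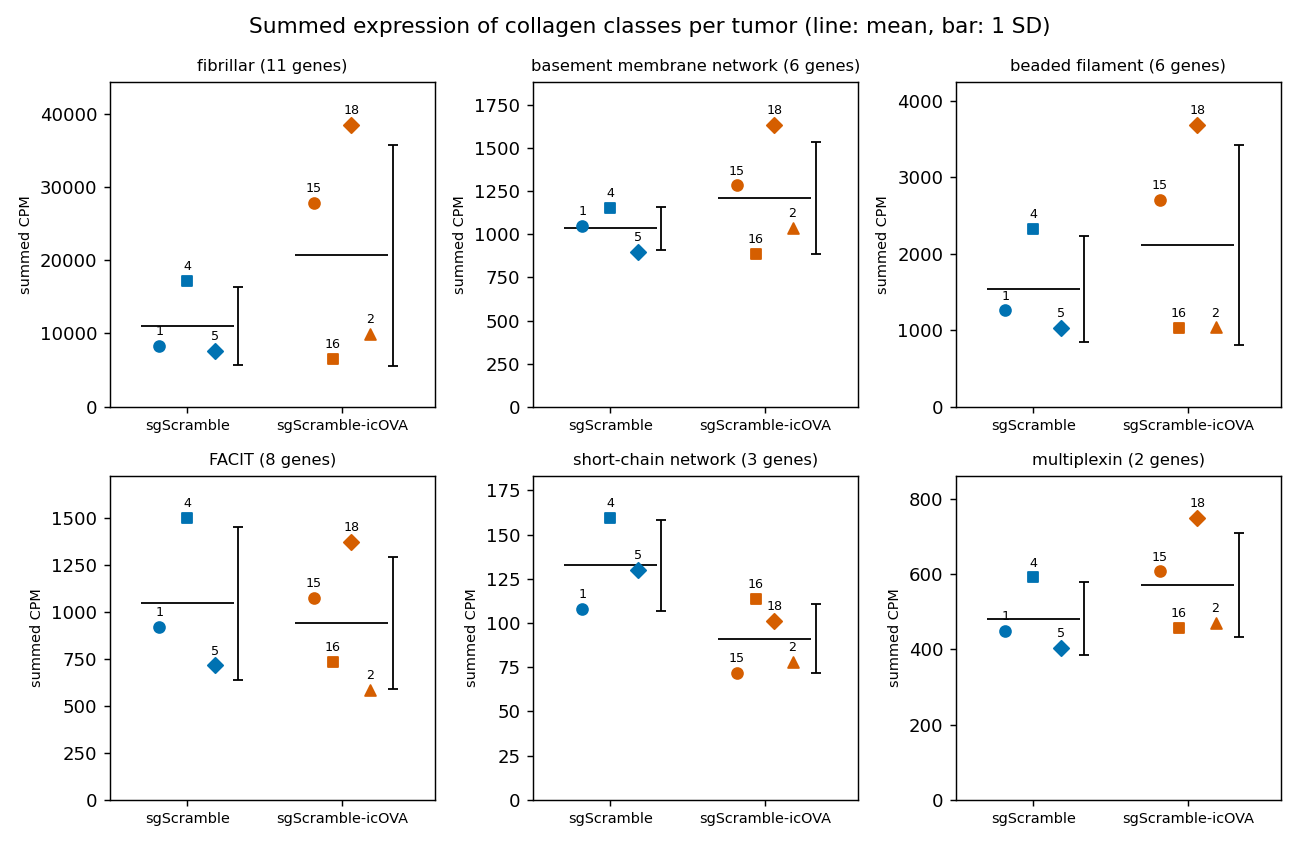
Summed CPM of 6 collagen classes in each tumor, with the group mean as a line and 1 SD as a bar. Fibrillar and beaded filament sums are highest in icOVA tumors 18 and 15, FACIT and short-chain sums are highest in sgScramble tumor 4, and the groups overlap in every panel.

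The summed levels of cell type markers moved with some of these classes. The 10 fibroblast markers summed to 661, 1023.5 and 702 CPM in sgScramble tumors 1, 4 and 5 and to 1096, 713, 1464 and 786 CPM in icOVA tumors 15, 16, 18 and 2. Tumors 18, 15 and 4 were highest by both this sum and the fibrillar sum. None of these markers was at 0 in a tumor, and of the 10, 0 were called higher and 1 (Tagln, a contractile gene) lower. Fibrillar CPM per unit of fibroblast marker CPM were 12.5, 16.8 and 10.8 in sgScramble and 25.3, 9.09, 26.3 and 12.6 in icOVA tumors, so the fibrillar sum differed more between tumors than the marker sum did. The 7 endothelial markers summed to 195 to 299 CPM in sgScramble and 237.5 to 588.5 CPM in icOVA tumors, and the 5 pericyte markers to 130 to 208 and 156 to 451 CPM. The collagen IV sum per unit of endothelial marker CPM was 4.95, 3.86 and 4.61 in sgScramble and 2.78, 3.74, 2.78 and 2.75 in icOVA tumors, ranges that did not overlap and were given no test. The 8 leukocyte markers summed to 1537 to 2183 and 3143 to 4024.5 CPM, and 5 of them were called higher. The part of cell content in the collagen values was not tested.

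**Figure D5:**
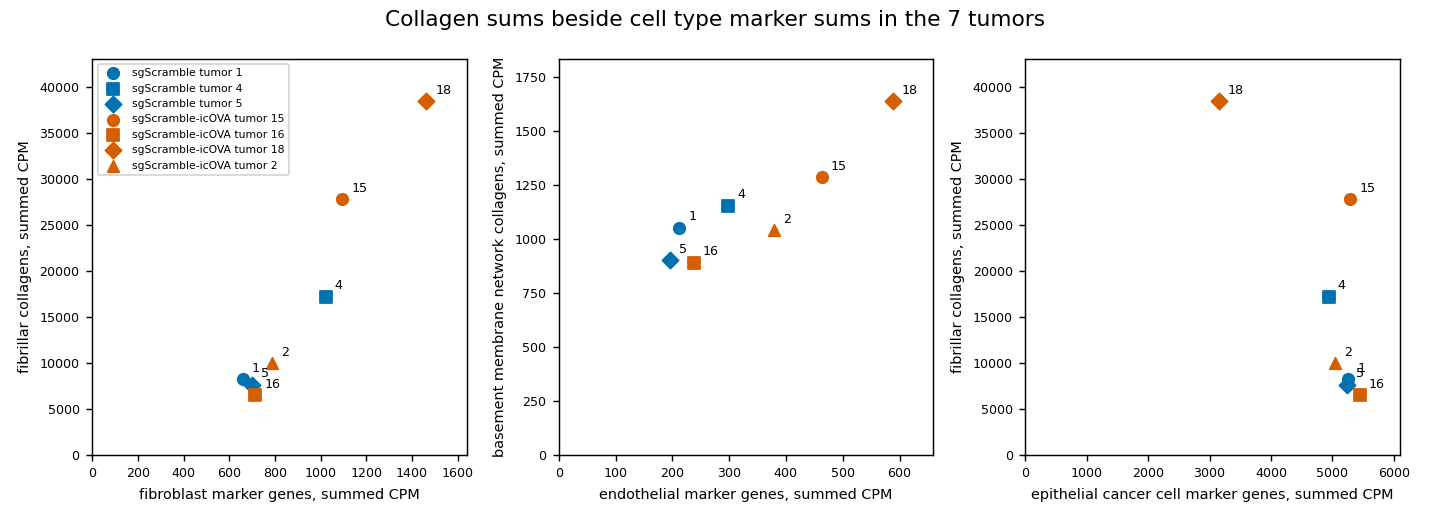
Summed CPM of fibrillar collagens against fibroblast markers (left), of basement membrane network collagens against endothelial markers (middle) and of fibrillar collagens against epithelial cancer cell markers (right), 1 point for each tumor. Tumor 18 is at the top of all 3 panels and has the lowest epithelial sum, 3149 CPM.

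The machinery around the chains was read from 69 listed genes for collagen modification, export, processing, cross-linking, receptors and matrix partners. Of the 66 tested, 1 was called higher and 2 lower, with a median log2 fold change of 0.30, beside the 3.36% and 2.54% of all genes given above. Colgalt1, a galactosyltransferase of collagen hydroxylysine, had 356, 347 and 436 CPM in sgScramble tumors and 254, 268, 261 and 254 CPM in icOVA tumors (the log2 fold change was -0.55 with SE 0.092, adjusted p = 0.0271, edgeR). P3h4, a partner of the prolyl and lysyl hydroxylases, had 43.6, 35.1 and 43.0 CPM against 22.6, 25.9, 29.1 and 22.2 CPM (-0.70, SE 0.12, adjusted p = 0.0284). As for Col27a1, neither set of values overlapped between groups. The other 13 genes of the modification list were not called.

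The gene called higher was Lama3, the laminin α3 chain of epithelial basement membranes, with 7.45, 6.92 and 9.33 CPM in sgScramble tumors and 54.6, 39.1, 15.6 and 48.5 CPM in icOVA tumors 15, 16, 18 and 2 (the log2 fold change was 2.32 with SE 0.41, adjusted p = 0.0284, edgeR). Tumor 18, richest in collagen, had the lowest icOVA value. With limma-voom its call was lost. All 3 of these calls were lost without sgScramble tumor 1, sgScramble tumor 5, icOVA tumor 15 or icOVA tumor 2. In those fits at most 6 of all genes were called higher and at most 2 lower.

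In the remaining lists the 2 most abundant genes were as follows, none of them called. The collagen chaperone Serpinh1 had a log2 fold change of 0.67 (SE 0.43) and the export receptor Mia3 of 0.11 (SE 0.11). The propeptide processing genes Pcolce and Bmp1 gave 0.005 (SE 0.19) and 0.21 (SE 0.28), and the cross-linking genes Loxl2 and Lox 0.13 (SE 0.18) and 0.18 (SE 0.36). The integrin receptor genes Itgb1 and Itga2 gave -0.041 (SE 0.098) and 0.18 (SE 0.22). Among fibril-associated proteins, Fn1 gave -0.45 (SE 0.18) and Sparc 0.78 (SE 0.51). Sparc and Serpinh1 were highest in icOVA tumors 18 and 15, as the fibrillar chains were, with 4840.0 and 3798 CPM for Sparc and 912 and 610.3 CPM for Serpinh1.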

How the data were processed

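RNA was sequenced from 3 sgScramble and 4 icOVA s/c tumors, with the Illumina TruSeq Stranded Total RNA kit according to the methods and as polyA RNA per the labels. The values the authors deposited are raw counts of reads on each gene, not normalized. The submitters' processing notes name mm10. The aligner, the counting tool, the annotation and the use of strand are not given in the sources used here, so reads of overlapping genes may have been shared. Symbols were found for 22414 of 22629 rows, and coordinates and exon lengths came from GENCODE M21 (GRCm38). An exon length is the union over all annotated transcripts of a gene, so ranks and ratios per kilobase depend on it. Genes were filtered with filterByExpr (minimum count 10, total 15), scaled by TMM and compared with edgeR 4.0.16 in R 4.3.3 (glmQLFit, glmQLFTest) without covariates, with Benjamini-Hochberg adjustment over all genes tested. The SE is the log2 fold change divided by the square root of F. Log2 CPM has a prior count of 2. The fit was tested on simulated data. Alternatives were DESeq2 1.42.0, limma-voom (limma 3.58.1), other scalings and filters, robust dispersion, a minimum fold change of 1.2 and leaving out each tumor.

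Per-tumor values are given for members past the threshold, the class leaders by mean CPM per kilobase, the 3 largest fold changes and their partner chains, and for others where named. Members, lists and classes were chosen with earlier results of these data known. Sums, shares and list medians were given no test.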

Additional observations from a re-analysis of the deposited data

How the results depend on the processing

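The tumors were compared without pairing, since the labels name no pairs. The paper's heat map legend calls the control and icOVA cells paired, without saying which tumors belong together. With 3 against 4 tumors, the number of calls depended on the tool and on single tumors. Collagen chain genes called higher were 0, and 3 with DESeq2 (Col6a4, Col6a5 and Col6a6) and 0 to 3 with 1 tumor left out. Those called lower were 2, and 4 with DESeq2 (Col20a1 and Col11a2 added), 1 against a minimum fold change of 1.2 (Col27a1), and 0 to 3 with 1 tumor left out, Col4a6 being added without sgScramble tumor 4 and Col8a2 without icOVA tumor 18. Col4a6 was too low for the main test. Without sgScramble tumor 4 it passed the count filter only through sgScramble tumors 1 and 5, with 24 counts each. Its direction was thus set by the filter, and this call is no evidence of a lower level. In the fits with 0 lower calls, 4 to 8 members of 34 and 2936 to 4007 of all genes had an unadjusted p below 0.05. Over all genes, 588 higher and 444 lower calls became 1558 and 1278 with DESeq2, 75 and 26 against the minimum fold change, and 0 to 1014 and 0 to 716 with 1 tumor left out. Pathway genes, 1 higher and 2 lower, became 3 and 4 with DESeq2, 0 higher with limma-voom, and 0 to 3 and 0 to 5 with 1 tumor left out. The cause was not tested. With 1 tumor left out the sign changed for Col4a4 (from -0.33 to 0.23, with 0.024 without sgScramble tumor 5, 0.23 without icOVA tumor 16, 0.057 without icOVA tumor 2), Col5a2 (-0.016 without icOVA tumor 18, up to 0.51), Col6a1 (-0.025 without icOVA tumor 18, up to 0.77) and Col12a1 (0.043 without sgScramble tumor 4, down to -0.54), none of them called. With all tumors kept, 297 of 303 fold changes of members kept both their sign and their call, 5 newly passed it, 1 no longer passed it and 0 changed sign. The fibrillar median was 1.09 without sgScramble tumor 4 and the basement membrane median -0.15 without icOVA tumor 18.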

Other observations

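Of 11 fibril-associated proteoglycan and glycoprotein genes, all of them tested, 10 had a positive log2 fold change and 0 were called, with a median of 0.78. Decorin (Dcn) had 143, 302 and 127 CPM in sgScramble tumors 1, 4 and 5 and 699, 149, 772 and 272 CPM in icOVA tumors 15, 16, 18 and 2, and lumican (Lum) 63.1, 103 and 50.3 CPM against 241, 28.6, 309 and 68.5 CPM. Both proteoglycans bind collagen fibrils, both were highest in icOVA tumors 18 and 15, and both were chosen after their values were seen. Fn1, the most abundant of the 11, was instead highest in sgScramble tumor 1 (4395.5 CPM) and lowest in icOVA tumor 18 (2171.5 CPM).

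The enzyme and receptor lists lay closer to 0. Positive log2 fold changes were found for 11 of 15 prolyl and lysyl modification genes (median 0.11), 6 of 6 tested folding and export genes (median 0.19), 7 of 7 propeptide processing genes (median 0.35), 5 of 5 cross-linking genes (median 0.18), 7 of 9 collagen receptor and uptake genes (median 0.18) and 7 of 13 basement membrane partners (median 0.30). Of all 17489 genes tested, 8641 were positive. No gene of the folding, processing, cross-linking or receptor lists was called. Adipocyte markers summed to 34.2 to 38.1 CPM in sgScramble and 28.6 to 77.5 CPM in icOVA tumors, and Schwann cell markers to 44.5 to 51.2 and 38.9 to 95.2 CPM, both highest in icOVA tumor 18.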
